A study of Mus musculus with 12 samples.

Results

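DNA methylation was compared between colonic adenomas that lacked Tet1 and colonic adenomas with 1 mutated copy of Tdg. The comparison covered every autosomal CCCGGG site with at least 100 reads in each of the 6 adenomas concerned, which left 16879 of 164896 autosomal sites. The Tet1 null group held 3 adenomas of the genotype Tet1-/- Tdg+/+ ApcMin/+, and the Tdg heterozygous group held 3 of the genotype Tet1+/+ TdgN151A/+ ApcMin/+. Control adenomas (Tet1+/+ Tdg+/+ ApcMin/+, n = 3) and double heterozygous adenomas (Tet1+/- TdgN151A/+ ApcMin/+, n = 3) took no part in the test and are given for reference. Mice of all 4 genotypes were on the C57BL/6J background, carried the Min allele of Apc, and were killed at 150 to 160 days. Whether the adenomas of a group came from separate mice is not stated in the labels, and the p-values reflect only how much these particular adenomas varied. Whole adenomas were dissected, and a level can reflect the mixture of cells in them as well as the methylation of adenoma cells.

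TET1 is a dioxygenase that oxidises 5-methylcytosine to hydroxymethyl-, formyl- and carboxylcytosine. TDG is the DNA glycosylase that cuts out the formyl and carboxyl forms, after which base excision repair restores an unmethylated cytosine, and it also removes thymine mispaired with guanine. The N151A substitution lies in the catalytic site of TDG and impairs base removal. The 2 genotypes therefore affect successive steps of active demethylation, one by loss of both copies of the first enzyme and the other by mutation of 1 copy of the next. The Min allele truncates Apc, a repressor of Wnt signalling whose loss starts intestinal adenomas.

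The assay was digital restriction enzyme analysis of methylation (DREAM). SmaI first cuts CCCGGG sites whose central CpG is unmethylated, XmaI then cuts the methylated sites that remain, and the sequence left at the fragment end shows which enzyme made the cut. A methylation level below is the percentage of methylated reads at a site, and a point is 1 percentage point of that level. Reads in genomic sites numbered 8213211 to 18527831 in Tet1 null and 15404336 to 18865833 in Tdg heterozygous adenomas, and the median depth at tested sites was lowest in Tet1 null 3 (395 reads, against 739 to 889.5 in the other 5). The spiked unmethylated standard read 1.29%, 0.827% and 0.147% in Tet1 null adenomas 1 to 3 and 0.559%, 0.120% and 0.133% in Tdg heterozygous adenomas 1 to 3, and the methylated standard read 98.9 to 99.2% in all 6. By reads on the Y chromosome, Tet1 null 1 and 2 and Tdg heterozygous 2 were male and the other 3 female.

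Almost every difference between the genotypes lay in the direction of higher methylation without Tet1. Of 13964 sites that had reads of both states, 316 differed (edgeR quasi-likelihood test, Benjamini-Hochberg adjusted p under 0.05). This is 2.26% of the sites tested. At 315 of them the level was higher in Tet1 null adenomas, and at 1 site it was lower (0.00716% of sites tested). Limma on log2 ratios called 288 sites, all higher in Tet1 null adenomas. Limma on the logit of the level adjusted by the authors called 6 sites, all higher, of which 3 were among the 316, and 912 had an unadjusted p under 0.05. The 315 sites, called higher sites below, went from a median of 2.51% in Tdg heterozygous to 17.1% in Tet1 null adenomas, with a median difference of 14.2 points and quartiles of 5.15 and 27.6 points. The count was 172 without Tet1 null 3, 187 without Tdg heterozygous 1 and 203 without Tdg heterozygous 2.

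Differences at the higher sites ranged from small shifts near 0 to large ones. Only 1 site had a mean below 5% in Tdg heterozygous and above 80% in Tet1 null adenomas. The difference was under 2 points at 32 of the higher sites, at least 10 points at 183, at least 30 points at 65 and at least 50 points at 6. All 3 Tet1 null levels lay above all 3 Tdg heterozygous levels at 298 of the 315 sites, and the groups overlapped at 17. The same separation held at 1254 of all sites tested (8.98%), and the opposite separation at 266 (1.9%). The gap between the lowest Tet1 null and the highest Tdg heterozygous level was at least 10 points at 88 higher sites and at least 30 points at 10. At 5 sites every Tet1 null adenoma was at 50% or more and every Tdg heterozygous adenoma below 20%.

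**Figure D1:**
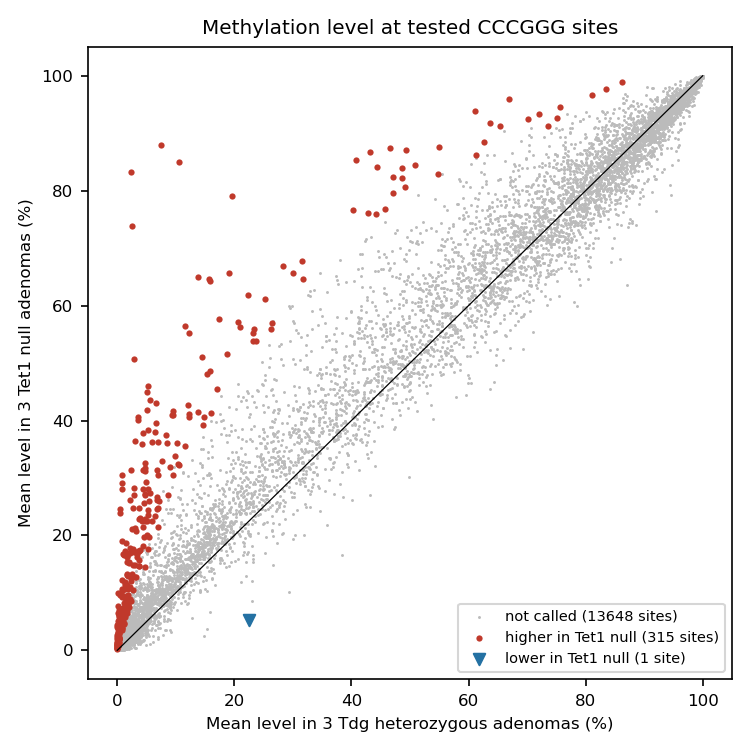
Mean methylation level (%) of the 3 Tdg heterozygous adenomas (x axis) and of the 3 Tet1 null adenomas (y axis) at the 13964 tested sites, 1 point per site. The 315 higher sites lie above the diagonal over the whole range of levels, most of them at the left edge, and the 1 lower site lies below it.

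Over all tested sites the median difference was 0.0770 points, and it depended on the level in controls. It was 0.0442 points at the 7537 sites below 5% in controls, 3.43 points at 5 to 20%, 2.17 points at 20 to 80% and −0.141 points above 80%. Tet1 null means were higher at 9068 sites and lower at 4893, and of the 1275 sites with an unadjusted p under 0.05, 1187 were higher and 88 lower. When group means were sorted into classes below 5%, 5 to 20%, 20 to 80% and above 80%, Tet1 null adenomas were in a higher class at 1003 sites and in a lower class at 233. The class boundary at 5% was crossed upwards in Tet1 null adenomas at 401 sites and downwards at 39. These sums count all tested sites and were not tested.

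The largest differences were found in a short run of 3 sites on chromosome 16 and at 1 site on chromosome 18. Positions below are of the mm9 build, and the sites were not assigned to genes because the gene table used here is of another build. At position 35660659 on chromosome 16 the levels were 95.6%, 64.7% and 89.2% in Tet1 null adenomas 1 to 3 and 2.84%, 1.20% and 2.98% in Tdg heterozygous adenomas 1 to 3. The site was mostly methylated in each Tet1 null adenoma and nearly free of methylation in each Tdg heterozygous one, a difference of 80.8 points (83.2% ± 16.3 against 2.34% ± 0.990, SD, n = 3, edgeR adjusted p = 1.53e-22, 111 to 282 reads). Control adenomas were at 8.54%, 3.59% and 1.04% there. Limma on log2 ratios gave this site an adjusted p of 1.91e-05. Both tests draw on the variation at all tested sites, so these p-values do not measure the spread of the adenomas at this site alone.

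The other sites of that run behaved alike. At position 35660504 the levels were 91.4%, 54.3% and 75.8% in Tet1 null and 1.93%, 1.62% and 3.99% in Tdg heterozygous adenomas (71.3 points, edgeR adjusted p = 1.40e-21). At position 35660144 they were 96.2%, 74.2% and 84.4% in Tet1 null and 9.86%, 11.0% and 10.7% in Tdg heterozygous adenomas (74.4 points, edgeR adjusted p = 3.42e-16). Tet1 null 2 was the lowest of its group at all 3 sites, and still stood above every Tdg heterozygous adenoma by more than 40 points. With reads summed over the 3 sites the run was at 93.8%, 63.6% and 80.7% in Tet1 null and at 5.24%, 5.45% and 6.78% in Tdg heterozygous adenomas (edgeR adjusted p = 2.87e-11).

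On chromosome 18, position 43741702 was at 93.3%, 78.4% and 92.0% in Tet1 null and at 7.53%, 3.30% and 11.4% in Tdg heterozygous adenomas. The difference was 80.5 points (87.9% ± 8.27 against 7.42% ± 4.06, SD, n = 3, edgeR adjusted p = 2.65e-21). Control adenomas lay between the genotypes, at 37.7%, 16.6% and 25.2%. The neighbouring site at position 43742045 began from a higher level, 51.8%, 52.8% and 47.8% in Tdg heterozygous adenomas, and was at 83.9%, 83.6% and 85.7% in Tet1 null adenomas (33.6 points, edgeR adjusted p = 0.00467, and 0.0873 without Tet1 null 3).

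Beside these, 10 further runs held the leading sites by size of difference, each run counted once. Together the 12 leading sites differed by 40.9 to 80.8 points, and by the rule that chose them none overlapped between the genotypes. Position 118138315 on chromosome 3 was at 94.9%, 55.9% and 86.2% in Tet1 null and at 6.69%, 34.7% and 17.6% in Tdg heterozygous adenomas (edgeR adjusted p = 2.08e-09). Position 10154587 on chromosome 8 was at 74.6%, 52.4% and 67.8% against 16.5%, 5.15% and 19.8% (edgeR adjusted p = 5.28e-07). The Tdg heterozygous adenomas were uneven there too, with number 2 the highest at the first site and the lowest at the other.

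Chromosome 14 held 3 of the 12. At position 75856108 the levels were 75.1%, 53.6% and 65.3% in Tet1 null and 22.5%, 6.65% and 17.6% in Tdg heterozygous adenomas (edgeR adjusted p = 3.51e-06). At position 14766131 they were 95.7%, 80.04% and 84.4% against 41.0%, 47.1% and 41.5% (edgeR adjusted p = 1.32e-05), while the 3 controls spread from 11.7% to 79.9%. The site at position 109311177 had the least even Tet1 null group, 80.3%, 38.6% and 33.3% (50.7% ± 25.7), against 4.16%, 3.05% and 1.51% (2.90% ± 1.33) in Tdg heterozygous adenomas (SD, n = 3, edgeR adjusted p = 1.13e-11).

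The remaining leading sites lay on chromosomes 3, 5 and 7. On chromosome 3, position 87614372 was at 71.7%, 72.7% and 52.6% in Tet1 null and 17.0%, 6.83% and 33.4% in Tdg heterozygous adenomas, and position 107261130 at 54.1%, 44.1% and 40.1% against 3.33%, 5.11% and 7.18%. On chromosome 5, position 58111839 was at 75%, 54.4% and 63.2% against 32.7%, 3.95% and 10.7%, and position 144519106 at 69.8%, 63.1% and 36.6% against 22.6%, 4.28% and 8.01%. On chromosome 7, position 86717245 was at 88.2%, 79.3% and 88.6% against 43.1%, 38.1% and 41.3%. The edgeR adjusted p lay between 1.43e-07 and 8.30e-05 at these 5 sites. All 12 leading sites remained past the threshold when any 1 of the 6 adenomas was left out.

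Among the Tet1 null adenomas, number 1 was the highest at 10 of the 12 leading sites, and the lowest was number 2 at 8 sites and number 3 at 4. Control adenomas were uneven there. Control 1 was the highest of the 3 controls at 11 of the 12 sites, and the controls spanned more than 20 points at 8. Position 58111839 on chromosome 5 is an example, with controls at 59.6%, 7.23% and 6.81%, so that control 1 lay within the range of the Tet1 null adenomas and controls 2 and 3 near the lowest Tdg heterozygous adenoma.

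**Figure D2:**
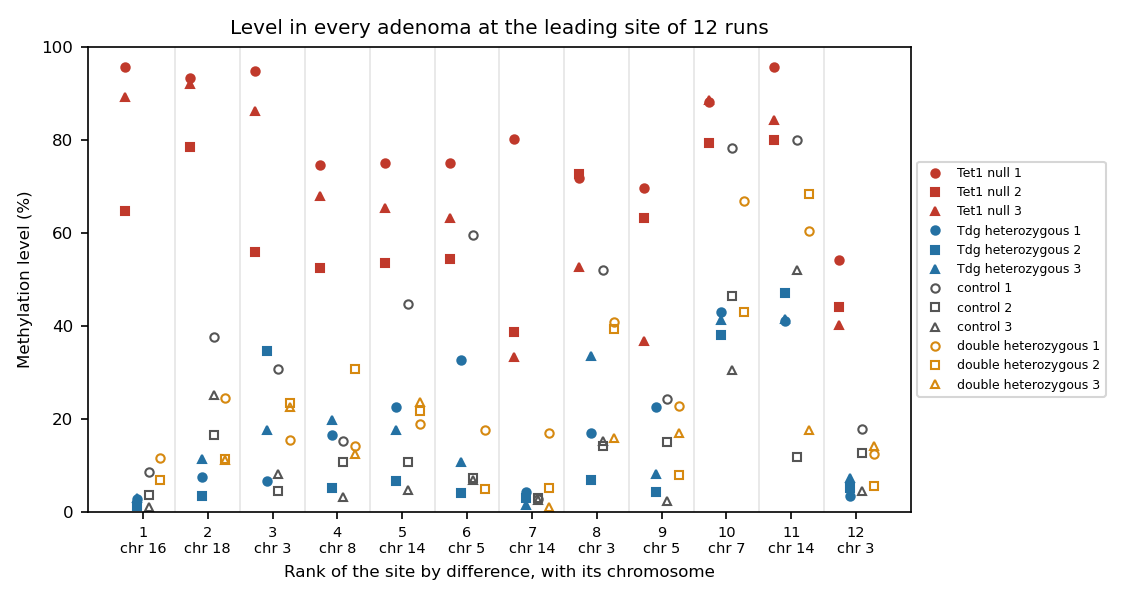
Methylation level (%) of each adenoma at the leading site of 12 runs, ordered by difference, with Tet1 null in red, Tdg heterozygous in blue, control in grey and double heterozygous in orange (values with under 100 reads are left out). All Tet1 null levels lie above all Tdg heterozygous levels at each site, and controls spread over more than 20 points at 8 of the 12.

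Differences between the genotypes were also counted over runs of neighbouring sites. CCCGGG sites no more than 500 bp apart were joined into runs, which gave 7199 runs, and 249 of them held a higher site. In 63 runs at least 2 sites were higher (60 with 2 and 3 with 3), and every tested site was higher in 50 of these. The widest of these 63 runs spanned 1233 bp, a width limited by the rule that ends a run at any gap over 500 bp. The 63 runs held 129 of the 315 higher sites. Both ends of 1 restriction fragment can be counted as neighbouring sites, so sites of a run are not independent. With reads summed over each run, 214 runs differed (2.97%, edgeR adjusted p under 0.05), 213 of them higher in Tet1 null adenomas and 1 lower. The run count was 124 without Tet1 null 3 and 369 without Tet1 null 1.

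Many higher sites had a neighbour that did not pass the test. The 239 runs with at least 2 tested sites and a higher site among them held 559 sites, of which 305 were higher and 254 not called. Of these 254 neighbours, all 6 levels were below 5% at 126 and above 80% at 8, and the difference was under 1 point at 114 and at least 10 points at 49. All 3 Tet1 null levels lay above all 3 Tdg heterozygous levels at 83 of the 254 (32.7%), against 8.98% of all tested sites. In the 187 runs of exactly 2 tested sites that held a higher site, both were higher in 48 and only 1 in 139. The median spacing of the sites was 318.5 bp in the first kind and 311 bp in the second.

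The leading runs showed both kinds. At position 107261498 on chromosome 3, next to the leading site at 107261130, levels were 0.576%, 0.971% and 0.562% in Tet1 null and 0.216%, 0.129% and 0.261% in Tdg heterozygous adenomas (edgeR adjusted p = 0.362). At position 144518756 on chromosome 5, next to the leading site at 144519106, both genotypes were highly methylated, 87.2%, 92.2% and 91.7% against 91.7%, 91.5% and 86.6% (edgeR adjusted p = 0.987). In each of these runs a difference of over 40 points stood beside a site where the group means were less than 1 point apart. At position 86717079 on chromosome 7, beside the leading site at 86717245, levels were 32.2%, 55.7% and 28.3% against 37.3%, 25.9% and 35.5%, and the groups overlapped (edgeR adjusted p = 0.904). Summed over their sites, neither the run on chromosome 5 nor that on chromosome 7 passed the test (edgeR adjusted p = 0.0750 and 0.0549).

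Other runs differed at each site. On chromosome 14, position 75856491 followed its neighbour 75856108, with 34.5%, 64.1% and 32.0% in Tet1 null against 12.3%, 2.39% and 2.27% in Tdg heterozygous adenomas (edgeR adjusted p = 9.83e-08). The order within the Tet1 null group was not the same at both sites: number 1 was the highest at 75856108 and number 2 at 75856491. On the same chromosome, position 14765813 was at 95.8%, 90.2% and 94.0% against 70.6%, 80.6% and 64.9% (edgeR adjusted p = 0.00342, and 0.0627 without Tet1 null 3, 0.0505 without Tdg heterozygous 1). With sex as a covariate this site did not pass either (edgeR adjusted p = 0.0511).

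The run at positions 109311177 to 109312055 on chromosome 14 was uneven among the Tet1 null adenomas. Tet1 null 1 was at 80.3%, 78.9%, 55.9% and 64.2% at its 4 sites in order of position. Tet1 null 2 was at 38.6%, 33.3%, 8.87% and 15.3%, and Tet1 null 3 at 33.3%, 13.4%, 9.38% and 3.82%. Tdg heterozygous adenomas were between 1.51% and 10.4% at all 4 sites. Tet1 null 1 was thus the highest along the whole run. Each Tet1 null adenoma was lower at the last sites of the run than at its first, and Tet1 null 3 lay below the lowest Tdg heterozygous level at the last. The first 3 sites were called, and the last was not (19.9 points, edgeR adjusted p = 0.219). Limma on log2 ratios gave adjusted p-values of 0.000599, 0.0241 and 0.0467 at the first 3. Without Tet1 null 1 the difference at the second site, 109311469, was 18.3 instead of 36.9 points (edgeR adjusted p = 0.0117), at the third, 109311560, 6.41 instead of 22.0 points (edgeR adjusted p = 0.132), and at the last, 109312055, 1.74 points (edgeR adjusted p = 0.887). Without Tet1 null 3 the last site passed the test (31.9 points, edgeR adjusted p = 0.0264).

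A run on chromosome 5 showed the same direction at much lower levels. At position 91831438 the Tet1 null adenomas were at 2.47%, 8.31% and 10.1% and the Tdg heterozygous adenomas at 0.357%, 0.368% and 0% (edgeR adjusted p = 3.51e-06). At position 91831731 they were at 3.31%, 7.22% and 8.46% against 1.07%, 0.175% and 0.222% (edgeR adjusted p = 2.60e-05). Here Tet1 null 1, the highest adenoma at most leading sites, was the lowest of its group. At position 91831914 the difference was 1.05 points (edgeR adjusted p = 0.00762), and the site did not pass without Tet1 null 3, without Tdg heterozygous 1 or without Tdg heterozygous 2 (edgeR adjusted p = 0.143, 0.0805 and 0.0732). Nor did it pass with limma on log2 ratios (adjusted p = 0.0742).

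**Figure D3:**
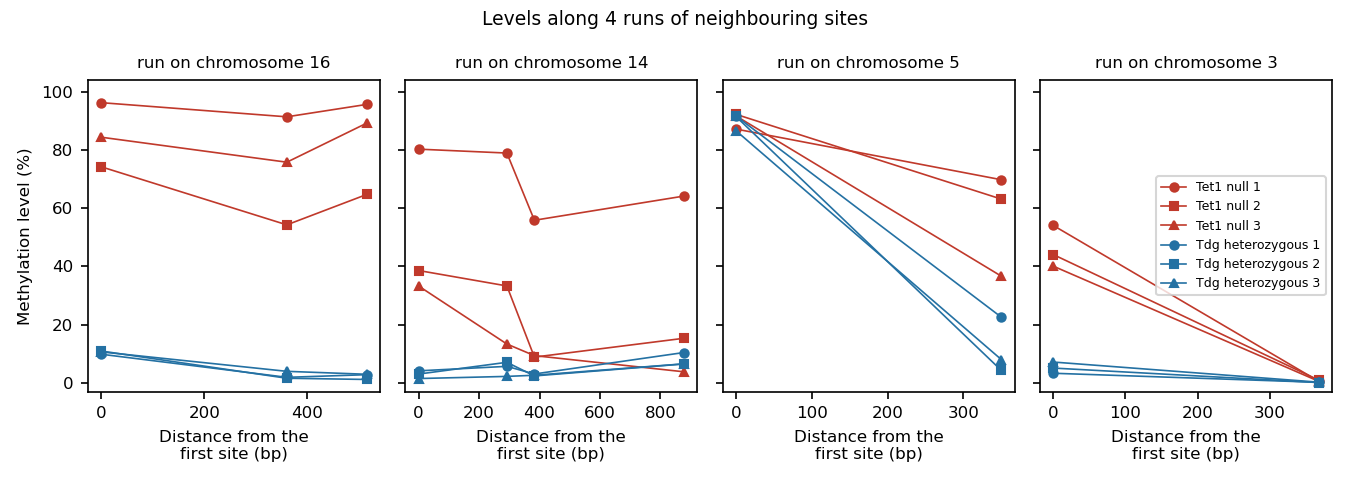
Methylation level (%) along 4 named runs in the Tet1 null (red) and Tdg heterozygous (blue) adenomas, 1 line per adenoma, with the distance in bp from the first site of the run on the x axis. The groups are apart at all 3 sites on chromosome 16, Tet1 null 1 lies above Tet1 null 2 and 3 along the run on chromosome 14, and on chromosomes 5 and 3 the groups are apart at 1 site and close together at its neighbour.

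The share of higher sites fell off within 1 kb of another higher site. Of the tested sites that lay 100 to 250 bp from the nearest other higher site, 50 of 125 were higher themselves. The share was 32.4% at 250 to 500 bp, 9.43% at 500 to 1000 bp (5 of 53) and 1.38% at 100000 bp or more. Few tested sites lay at the middle distances (53 at 500 to 1000, 39 at 1000 to 2000 and 46 at 2000 to 5000 bp). Among sites not called, all 3 Tet1 null levels lay above all 3 Tdg heterozygous levels at 12.5%, 13.5% and 17.4% in these ranges. That share was 38.7% at 100 to 250 bp, 33.8% at 250 to 500 bp and 6.40% at 100000 bp or more. The median difference at sites not called fell sooner. It was 3.19 points at 100 to 250 bp (quartiles 0.325 and 10.5, 75 sites), 1.36 points at 250 to 500 bp (148 sites) and 0.0393 points at 500 to 1000 bp (48 sites), against 0.0622 points at 100000 bp or more. Most tested sites had a near neighbour: 99.1% of them had another CCCGGG site within 500 bp, against 29.2% of all autosomal sites.

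**Figure D4:**
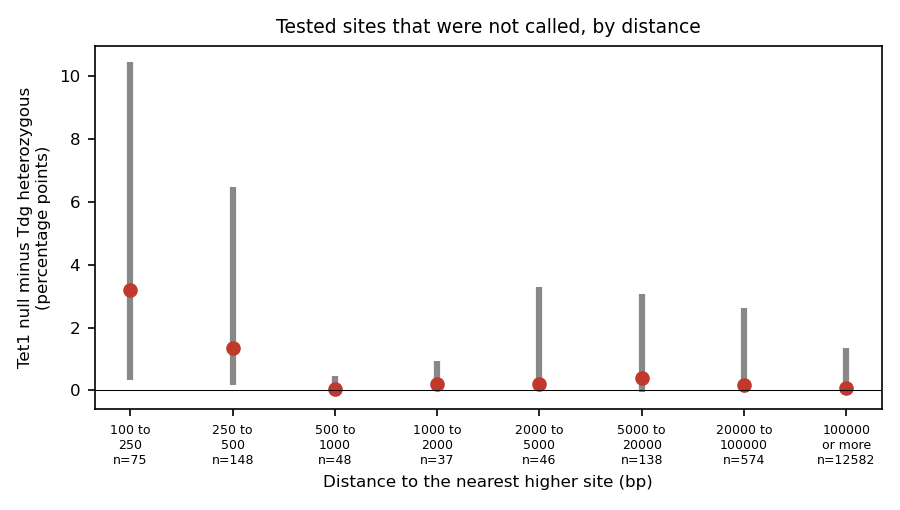
Difference in level, Tet1 null minus Tdg heterozygous in points (y axis), at tested sites that were not called, grouped by distance in bp to the nearest higher site (x axis), with the median as a point and the quartiles as a bar. The median is 3.19 points at 100 to 250 bp and 1.36 points at 250 to 500 bp, and is near 0 from 500 bp on.

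Averaged over the higher sites, control adenomas lay between the genotypes, closer to Tdg heterozygous adenomas, though not at every site. Averaged over the 315 sites, the level was 28.3%, 25.8% and 27.1% in Tet1 null adenomas (27.1% ± 1.27, SD, n = 3) and 9.68%, 8.94% and 10.8% in Tdg heterozygous adenomas (9.80% ± 0.922). It was 14.3%, 11.1% and 11.2% in controls (12.2% ± 1.80). The control mean was nearer to the Tdg heterozygous mean at 293 sites and nearer to the Tet1 null mean at 22. It lay between the genotype means at 211 sites, below the Tdg heterozygous mean at 102 and above the Tet1 null mean at 2. All controls were below all Tet1 null adenomas at 247 sites, and all were above all Tdg heterozygous adenomas at 22. The median distance was 10.8 points from control up to Tet1 null and 0.282 points from Tdg heterozygous up to control. Since the sites were chosen for the difference between both genotypes, these values are a description and were not tested. The share of all tested sites with the same order of controls is not given, so none of these counts of sites has a background beside it.

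Double heterozygous adenomas carry the same Tdg allele with 1 copy of Tet1 left. At the 187 higher sites read at least 100 times in each of the 12 adenomas, their mean was nearer to the Tdg heterozygous mean at 172 and nearer to the Tet1 null mean at 15. All 3 lay below all Tet1 null adenomas at 150 of these sites and above all Tdg heterozygous adenomas at 28. These sites were chosen for the difference between Tet1 null and Tdg heterozygous adenomas. The share of all tested sites with the same order is not given, so the counts of 172, 15, 150 and 28 have no background beside them. No test was made of this group here.

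Higher sites were also counted in 4 classes set by fixed limits on the control level, and the starting level in each class follows from those limits. Sites below 5% in controls were the most numerous: 183 of 7537 tested were higher (2.43%), with a median difference of 5.84 points, and their mean level was 10.5% ± 0.509 without Tet1, 1.33% ± 0.215 with mutated Tdg and 1.47% in controls. Sites at 5 to 20% in controls had the largest share, 77 of 1229 (6.27%), with a median difference of 24.0 points and means of 32.7% ± 2.76, 7.24% ± 1.07 and 9.89%. Sites at 20 to 80% in controls made up 47 of 3164 (1.49%), with a median difference of 32.9 points and means of 71.5% ± 3.97, 36.6% ± 3.18 and 44.7%. Above 80% only 8 of 2026 were higher (0.395%). The share of tested sites whose Tet1 null levels all lay above the Tdg heterozygous levels followed the same order of classes, at 10.2%, 15.5%, 7.36% and 3.16%, and the opposite separation was at 1.23%, 0.325%, 1.45% and 6.07%.

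At the 8 sites above 80% in controls, the control mean was nearer to the Tet1 null mean at 7 of 8 sites, against 4 of 183, 4 of 77 and 7 of 47 in the classes below. Sorting by control level largely fixes this order, so it is a description only. Averaged over the 8 sites, controls were at 87.9% ± 5.43, Tet1 null adenomas at 91.5% ± 3.86 and Tdg heterozygous adenomas at 70.5% ± 5.44 (SD, n = 3). At position 7:81832536 the levels were 82.2%, 66.7% and 80.9% in Tet1 null, 34.7%, 44.2% and 42.1% in Tdg heterozygous and 86.4%, 75.4% and 81.0% in control adenomas (edgeR adjusted p = 0.00684). At position 18:82565815 they were 91.9%, 72.4% and 87.6% in Tet1 null, 39.9%, 55.0% and 50.8% in Tdg heterozygous and 89.4%, 74.4% and 86.8% in control adenomas (edgeR adjusted p = 0.00157). At position 4:99029363 Tet1 null adenomas were at 96.0%, 92.8% and 95.1%, Tdg heterozygous adenomas at 64.8%, 86.3% and 75.9% and controls at 92.6%, 67.9% and 94.3%, so that control 2 lay within the Tdg heterozygous range (edgeR adjusted p = 0.00451). At the first pair of sites the Tdg heterozygous adenomas lay below all Tet1 null and control adenomas. Double heterozygous adenomas 1 to 3, which carry the same Tdg allele, were at 79.5%, 50.9% and 70.5% at 7:81832536 (78 reads in number 3). They were at 82.7%, 85.2% and 50% at 18:82565815, where only number 3 lay within the Tdg heterozygous range. All 3 calls were lost when either of 2 adenomas was left out: without Tet1 null 3 the edgeR adjusted p was 0.156, 0.0655 and 0.0683, and without Tdg heterozygous 1 it was 0.107, 0.0586 and 0.176. The call at 4:99029363 was also lost with sex as a covariate (edgeR adjusted p = 0.0881).

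**Figure D5:**
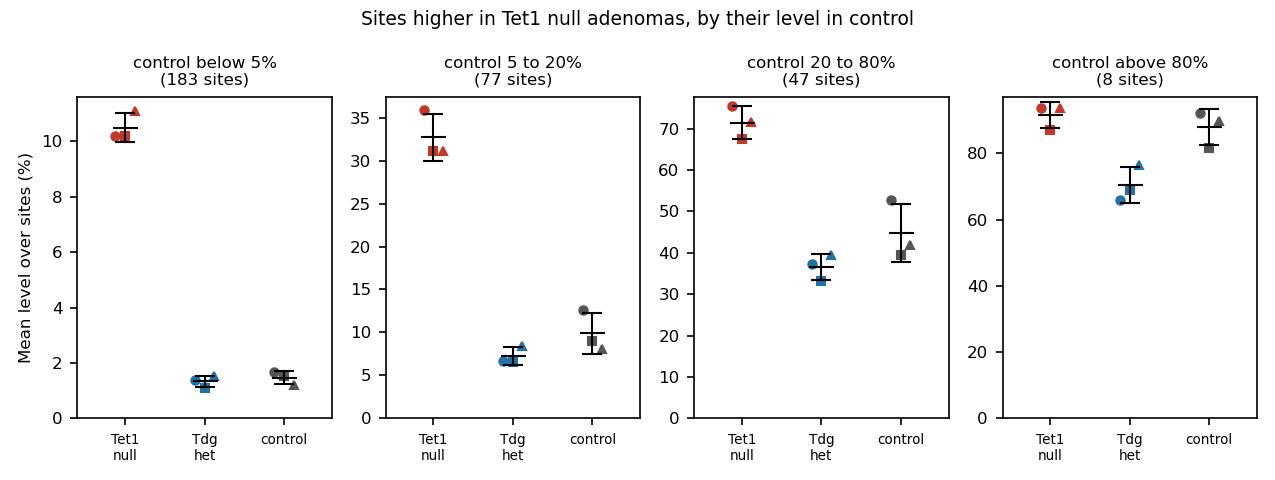
Mean methylation level (%) of each Tet1 null, Tdg heterozygous and control adenoma over the higher sites, in 4 panels by control level, with the mean and SD over 3 adenomas as bars; the vertical scales of the panels differ. Tet1 null levels lie above Tdg heterozygous levels in each panel by the choice of sites, and where control lies in the lowest and highest panels follows largely from the split by control level.

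The average level over all tested sites separated the genotypes far less than the single sites did. It was 26.98%, 30.3% and 29.7% in Tet1 null and 26.7%, 27.1% and 28.3% in Tdg heterozygous adenomas (29.0% ± 1.75 against 27.4% ± 0.810, SD, n = 3, exact permutation p = 0.30, two-sided, adjusted 0.50 over 5 means). Sites below 5% in controls were the only class in which the groups did not overlap, at 0.897%, 1.12% and 1.22% against 0.553%, 0.604% and 0.5997%. Their difference of 0.494 points gave the smallest p that 3 against 3 allows (exact permutation p = 0.10, adjusted 0.50). Within the Tet1 null group the unmethylated standard ran the opposite way, highest in number 1 and lowest in number 3, and its group means differed by about as much as this class (0.753% ± 0.573 against 0.271% ± 0.250, SD, n = 3). The part of incomplete cutting in this difference was not tested.

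The other classes overlapped. Sites at 5 to 20% in controls were at 13.7%, 19.9% and 19.2% in Tet1 null and at 10.7%, 10.3% and 15.7% in Tdg heterozygous adenomas (exact permutation p = 0.20, adjusted 0.50, n = 3). Sites at 20 to 80% were at 54.4%, 64.5% and 61.9% against 54.9%, 56.2% and 59.0% (exact permutation p = 0.40, adjusted 0.50, n = 3). Tet1 null 1 lay below all Tdg heterozygous adenomas in this class, and the difference of 3.57 points was 6.497 points without it and 1.45 points without Tet1 null 2. Above 80% the means were 90.7% ± 1.35 and 90.5% ± 0.560 (SD, n = 3, exact permutation p = 0.80), and the sign of the difference depended on which adenoma was left out.

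At many higher sites the Tdg heterozygous adenomas had next to no methylation. Every Tdg heterozygous adenoma was below 5% at 177 of the 315 sites and below 1% at 76. At these 76 sites the Tet1 null mean had a median of 2.78% and reached from 0.304% to 10.04%, with 15 sites at 5% or more, and every control was below 1% as well at 63. The unmethylated standard, at 1.29% and 0.827% in Tet1 null 1 and 2, lies within that range, so differences of about 1 point at such sites are of the size of the error of cutting seen in the standards. The part of incomplete cutting in these differences was not tested. At the 315 sites as a whole Tet1 null 1 was the lowest of its group at 150, Tet1 null 2 at 94 and Tet1 null 3 at 71. At the 183 sites below 5% in controls Tet1 null 1 was the lowest at 115.

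A further 2902 sites had unmethylated reads alone in all 6 adenomas and could not be tested. They had a median of 3528 reads summed over the adenomas, at which a count of 0 allows a level of up to 0.085%, counting error only. Of these sites, 6 lay within 500 bp of a higher site.

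Gains from a low level were counted in each adenoma at 10211 sites that were below 5% in every control. A gain was a level of 20% or more. Tet1 null adenomas had gained at 23, 18 and 24 sites, or 0.225% (95% Clopper-Pearson interval 0.143 to 0.338), 0.176% (0.105 to 0.278) and 0.235% (0.151 to 0.350). Tdg heterozygous adenomas had gained at 0, 8 and 0 sites, where 8 is 0.0783% (0.0338 to 0.154) and a count of 0 has an upper bound of 0.0361%. The shares were 0.212% ± 0.0315 and 0.0261% ± 0.0452 (SD, n = 3), without overlap (exact permutation p = 0.10, the smallest possible, adjusted 0.20 over gains and losses). These sites overlap with those tested above, so the shares are not a separate line of evidence.

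Some gains were shared among Tet1 null adenomas and none among Tdg heterozygous ones, which had fewer gains. In the Tet1 null group 44 sites had gained in at least 1 adenoma: 31 in 1, 5 in 2 and 8 in all 3. The 8 sites gained in the Tdg heterozygous group all came from 1 adenoma, number 2, so no site could be shared in that group at this limit. With a limit of 10% the Tet1 null group had 161 such sites, of which 24 were shared by all 3 adenomas and 45 by 2, while the 32 sites of the Tdg heterozygous group were each in a single adenoma. Recurrence was counted and not tested, and it depends on the number of gains per adenoma. At 10% these numbers were 53, 92 and 109 in Tet1 null and 10, 17 and 5 in Tdg heterozygous adenomas. At a limit of 50% there were 5, 1 and 2 gains in Tet1 null adenomas and none in Tdg heterozygous adenomas.

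The 8 sites gained in all Tet1 null adenomas were among the higher sites called by edgeR, a call that rests on the same reads. Beside those on chromosomes 14 (109311177) and 16 (35660504), the clearest was position 113927258 on chromosome 11, at 33.6%, 23.4% and 34.6% against 0.563%, 1.29% and 0.447% (edgeR adjusted p = 2.16e-14). On chromosome 8, position 112701496 was at 27.6%, 47.4% and 45.4% against 2.14%, 4.35% and 3.94%, and position 114433829 at 27.7%, 39.4% and 55.1% against 2.04%, 2.66% and 5.77%. At both, Tet1 null 1 was the lowest of its group, unlike at the leading sites. Position 121316246 on chromosome 1 was at 33.9%, 22.3% and 22.3% against 1.95%, 2.29% and 2.09%, and position 81949021 on chromosome 3 at 33.0%, 21.6% and 30.3% against 2.23%, 2.79% and 3.45%. The exception to low Tdg heterozygous levels was position 102513773 on chromosome 6, at 25.3%, 25.7% and 46.1% against 19.5%, 7.03% and 5.07% (edgeR adjusted p = 0.0154).

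Losses did not separate the genotypes. Of 1652 sites above 80% in every control, Tet1 null adenomas were at 60% or less at 14, 0 and 0 sites and Tdg heterozygous adenomas at 11, 22 and 0 (0.282% ± 0.489 against 0.666% ± 0.666, SD, n = 3, exact permutation p = 0.70, adjusted 0.70). Of 43 sites lost in any of the 6 adenomas, 3 were lost in at least 2.

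At the higher sites, Tet1 null adenomas varied more among themselves than Tdg heterozygous adenomas did. The median SD there was 4.83 points in Tet1 null and 0.943 points in Tdg heterozygous adenomas, and it was the larger in Tet1 null at 266 of 315. Over all tested sites it was the larger in Tet1 null at 8461 (60.6%). Counted as sites where a pair of adenomas differed (chi-square p under 0.05), the groups were not apart, with 28.7, 37.8 and 42.5% of sites for the Tet1 null pairs and 33.4, 38.7 and 40.1% for the Tdg heterozygous pairs. The larger SD goes with the higher level at these sites, and the part of the level in it was not tested. The highest Tet1 null level was over 3 times the lowest at 68 higher sites. Each Tet1 null adenoma was the highest at a similar number of higher sites: numbers 1, 2 and 3 at 102, 103 and 110. The number of sites called did depend on single adenomas, with 351 called without Tet1 null 1, 228 without Tet1 null 2 and 172 without Tet1 null 3. In every Tet1 null adenoma the level was at least 10 points above the Tdg heterozygous mean at 122 sites and at least 20 points above it at 64.

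The only site called lower in Tet1 null adenomas was position 117095557 on chromosome 13. It was at 7.18%, 7.10% and 1.64% in Tet1 null and 10.6%, 47.1% and 9.76% in Tdg heterozygous adenomas, with controls at 4.77%, 25.1% and 42.1% (−17.2 points, edgeR adjusted p = 0.0436). Most of the difference came from Tdg heterozygous 2, without which it was −4.86 points (edgeR adjusted p = 0.851), and the site did not pass without Tet1 null 3 (adjusted p = 0.743) or with limma (adjusted p = 0.206). With sex as a covariate it passed (edgeR adjusted p = 0.00184). The site also passed without Tet1 null 1, Tet1 null 2, Tdg heterozygous 1 or Tdg heterozygous 3 (edgeR adjusted p = 0.0242, 0.0457, 0.0415 and 0.0124).

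The next sites in this direction did not pass. Position 23882458 on chromosome 17 was at 11.3%, 3.21% and 15.99% in Tet1 null and 31.4%, 40.8% and 15.6% in Tdg heterozygous adenomas (edgeR adjusted p = 0.0596), and passed without Tet1 null 1 (0.0468) or Tdg heterozygous 3 (0.0187). Position 8731243 on chromosome 15 was at 66.3%, 93.9% and 77.3% against 95.3%, 94.2% and 94.1% (−15.3 points, edgeR adjusted p = 0.0640), and without Tet1 null 2 the difference was −22.7 points (edgeR adjusted p = 0.00566). Here Tet1 null 1 and 3 lay below all Tdg heterozygous and control adenomas, and Tet1 null 2 lay just below the lowest of them. The other 2 sites named, position 139767331 on chromosome 7 and position 33487096 on chromosome 2, had no methylated read in any Tet1 null adenoma and 0.661 to 0.839% and 0.246 to 0.592% in Tdg heterozygous adenomas (edgeR adjusted p = 0.0776 and 0.0888).

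Higher sites were found on all 19 autosomes. The share was highest on chromosomes 6 (25 of 642, 3.89%), 14 (17 of 476, 3.57%) and 3 (18 of 577, 3.12%) and lowest on chromosome 17 (5 of 668, 0.749%). On chromosome 10, which carries both Tet1 and Tdg, 20 of 717 sites were higher (2.79%). Without it 296 sites were called, of which 295 were higher.

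Sites among many other CCCGGG sites were less often called. With 1 tested or untested neighbour within 500 bp, 233 of 9068 sites were higher (2.57%), and with 4 or more, 5 of 776 (0.644%). Crowded sites are mostly unmethylated in controls. Among sites below 5% in controls the shares were 3.66% with 1 neighbour (129 of 3524), 1.66% with 2 (34 of 2049), 1.04% with 3 (12 of 1149) and 0.678% with 4 or more (5 of 737). This fall was not tested, since neighbouring sites are not independent.

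By the depth of the shallowest of the 6 adenomas, the share of higher sites was 1.93% at 100 to 200 reads, 2.40% at 200 to 400, 2.44% at 400 to 800 and 1.55% at 800 or more. The median difference of the higher sites was between 14.2 and 15.6 points in the first 3 ranges and 1.71 points at the 17 higher sites with 800 reads or more. Of the tested sites read at least 100 times in each of the 12 adenomas, 187 of 7166 were higher (2.61%), and of the others, 128 of 6798 (1.88%).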

How the data were processed

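DNA with added methylation standards was cut with SmaI and then XmaI, per the labels' protocols. The submitters' processing notes name Trim Galore, Bowtie2 and mm9, without versions. The extraction protocol names a rat build, while the file headers name mm9. The deposited values are counts of methylated and unmethylated reads at 173449 CCCGGG sites and 2 percent values per site, a raw level and one adjusted by the authors with the standards, per the file headers and labels. Levels in the text are percentages computed from the deposited counts.

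The comparison, its rules and the named sites were chosen with earlier results of these data known. Groups follow the labels' genotypes. Of the 16879 sites that met the depth rule, 2915 showed a single state in all 6 adenomas (13 of them methylated alone) and were not tested. The other 13964 were tested with the quasi-likelihood test of edgeR 4.0.16 (R 4.3.3). The model held 1 coefficient per adenoma for depth and 1 per genotype for the methylated count, gave both counts of an adenoma the same library size and used no dispersion trend (common dispersion 0.106). Tests were two-sided, adjusted over all sites by Benjamini-Hochberg, threshold 0.05. The script was checked on simulated counts. For values that give 1 number per adenoma, exact permutation tests were used (scipy 1.17.1). Classes by control level used the 13956 sites with at least 100 reads in every control. Intervals and the 3-count floor cover counting error only, since no molecular identifiers are named. Alternatives used limma 3.58.1 on log2 ratios of the deposited counts with 2 reads added to each, the adjusted percent level, other depth and level limits, all 12 adenomas, sex, replicate number, summed runs, chromosome 10 left out, and leaving out each adenoma. Plots were made in matplotlib 3.10.9.

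Named sites were the leading site of the 12 runs with the largest difference among called sites without overlap, with their run neighbours, the 5 runs with the most called sites, the 5 lower sites with the smallest p, the 3 largest differences in the 20 to 80% and above 80% control classes, and the 3 smallest p. Sites gained in all 3 Tet1 null adenomas or in Tdg heterozygous 2 were named after their values were seen. Adenomas of 1 genotype differed at 28.7 to 42.5% of sites (chi-square p under 0.05), so none looked like 1 library deposited more than once. The gene table at hand is of GRCm38.p6, so sites were not assigned to genes, no sequences are shown, and the gene lists were not analysed here. The loss of Tet1 was taken from the labels and not checked.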

Additional observations from a re-analysis of the deposited data

Results flagged for a closer look

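The change from control differed between Tet1 null and Tdg heterozygous adenomas at 316 sites by a test of the difference itself, which is the comparison of both genotypes given above (edgeR adjusted p under 0.05).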

How the results depend on the processing

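The 3 against 3 design, the depth of Tet1 null 3 and the error of the standards (up to 1.29%) limit what could be called, most of all below 1 or 2 points. Site counts of 316 became 339 at a minimum of 50 reads (303 of the 316 called), 288 with limma on log2 ratios (263 called), 239 with sex as a covariate (227 called, 2 of the 239 lower) and 296 without chromosome 10. The count was 193 in the fit of all 12 adenomas, which tested 7696 sites (186 of 187 testable sites called), and 193 at sites with a mean level of 1 to 99% (7863 sites, 193 of 294). Limma on the logit of the adjusted level called 6 sites (912 at an unadjusted p under 0.05); restricted to mean levels of 1 to 99%, an alternative chosen after seeing the data, it called 212. Leaving out 1 adenoma gave 172 to 351 sites and 124 to 369 runs. With replicate number as a replicate block the counts were 220 sites (219 shared) and 156 runs; the numbers do not pair the adenomas (correlations of 0.0987, −0.0954 and −0.00485 for adenomas of the same number, and not every adenoma correlated best with its own number). The 1 lower site did not pass with the block (adjusted p = 0.0744).

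Signs changed when 1 adenoma was left out in the mean of sites above 80% (range −0.149 to 1.03 points: −0.127 without Tet1 null 2, −0.149 without Tet1 null 3, −0.0694 without Tdg heterozygous 1), at position 144518756 on chromosome 5 (range −1.22 to 2.03: −0.50 without Tet1 null 2, −0.231 without Tet1 null 3, −1.22 without Tdg heterozygous 3) and at position 86717079 on chromosome 7 (range −2.59 to 11.1, lowest without Tet1 null 2), neither of which was called. The cause was not tested. The other class means and the shares of gains and losses kept their sign in every alternative run.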

Other observations

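The 8 sites that Tdg heterozygous 2, alone in its group, had gained were at 21.9 to 30.2% in that adenoma and at 1.17 to 6.56% in Tdg heterozygous 1 and 3. They lay at positions 28771350 and 102290124 on chromosome 2, 37727677 and 136344803 on chromosome 5, 45238947 on chromosome 9, 103583504 and 103583755 on chromosome 11 and 51277887 on chromosome 18. Tet1 null adenomas were not low at all of them: position 28771350 was at 32.5%, 7.83% and 5.13% in Tet1 null adenomas 1 to 3, position 103583504 at 22.7%, 29.4% and 18.4%, and position 103583755 at 9.46%, 18.9% and 20.5%. None of the 3 double heterozygous adenomas, which carry the same Tdg allele, had more than 3 gains by the same rule (1, 3 and 0), with the third of them shallow.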
